A study of Mus musculus with 5 samples.

Results

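The genes described here are 10 members of the gp130 cytokine pathway: the shared receptor chain Il6st (gp130), the ligands Il6 and Lif, the receptors Il6ra, Lifr, Cntfr and Osmr, the kinase Jak1, the transcription factor Stat3 and the inhibitor Socs3. They were chosen by name for their known part in the response of neurons to nerve injury, by a rule that uses no measured value, though with earlier results of these data known, and all 10 were found among the 15154 genes of the table. Their levels were compared in DRG neurons, the sensory neurons of the dorsal root ganglia (3 libraries, 16 days in vitro), and in CGNs, the granule neurons of the cerebellum (2 libraries, 16 hours in vitro). Both came from C57bl/6j mice at postnatal day 8 and were grown on poly-d-lysine and laminin, and no library was labelled as injured or treated with a cytokine. DRG cultures, each pooled from the ganglia of more than one mouse, received nerve growth factor and FuDR, a nucleoside analogue that kills dividing cells, and were mostly but not wholly neuronal, whereas each CGN culture came from a single mouse. Cell type, time in culture and medium therefore differed together between the groups, and their parts cannot be told apart.

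Cytokines of the interleukin-6 family act through gp130, a receptor chain that all of them share. Il6 binds its own receptor Il6ra, Lif binds Lifr, ciliary neurotrophic factor binds Cntfr, and each complex then recruits gp130. Oncostatin M in the mouse signals mainly through Osmr and gp130. Kinases such as Jak1, held on the receptor tails, phosphorylate Stat3, which enters the nucleus and switches on target genes, and Socs3 is a target whose product binds gp130 and Jak1 and shuts the signal off. In sensory neurons the pathway is known for its activation after peripheral nerve injury and for its part in the regrowth of axons.

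The binding motif of STAT dimers connects the last members of this chain to the DNA, so the start of each member's transcribed region was searched for it. The letters searched were TTCNNNGAA, which read the same on both strands, in a window from 250 bases before to 50 bases after the 5′ end of each gene's region in the table, on the NCBIM37 (mm9) sequence. The motif stood in the windows of 2 of the 10 members, Socs3 and Lif, and in 6.78% of the 11496 windows of all genes that could be matched by name and position to the GENCODE M1 annotation. Both sites are shown 5′ to 3′ on the strand of the gene, with the motif in capitals. The Socs3 site, chr11:117830543-117830571 on the minus strand, has its motif begin 3 bases before the 5′ end of the region and run across it. The Lif site, chr11:4166318-4166346 on the plus strand, has its motif 204 bases before the 5′ end. GENCODE M1 places both sites inside the annotated gene, since it starts Socs3 at position 117831361 and Lif at position 4157560, further upstream than the table does.
Socs3: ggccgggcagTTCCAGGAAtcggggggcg
Lif: atcaatcaaaTTCTTAGAAgaaggaaaaa
A match of these letters is a description of the sequence and does not show that a STAT protein was bound there.

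Levels are given as FPKM, which the authors estimated for each isoform, and the level of a gene is the sum of its isoforms. FPKM counts fragments per length of transcript, here scaled for each library by upper-quartile normalization. Genes were tested with limma on log2(FPKM + 50) if 2 or more libraries had an FPKM of 50 or more, and were called at an adjusted p under 0.05. Fold changes are DRG neurons over CGNs on that scale, which understates the change of genes with low values. Total FPKM lay between 51860685 and 62824363 in the DRG libraries, against 22444463 and 37275184 in the CGN libraries, and the median log2 fold change of the 13275 genes tested was 0.59. This shift is not a property of the members, and it moved with the scaling of the libraries, with a median of 0.02 after quantile normalization, -0.03 with median ratios and -0.26 with equal totals. The summed level of sensory neuron markers was 474022 to 629297 FPKM in the DRG libraries, against 4801 and 5089 FPKM in the CGN libraries, and that of granule neuron markers was 1329 to 2014 FPKM in the DRG libraries, against 164926 and 254961 FPKM in the CGN libraries, so the markers matched the labels. The depth behind a single value was not given with it, so the precision of one library's value is known only through the 95% bounds that the authors' program wrote.

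Il6st, Jak1, Stat3 and Osmr were higher in DRG neurons, and none of the 9 members tested was called lower. The members called higher were thus 4 of 9, read against 28.4% of all genes tested, and the 0 called lower stand against 9.22% of all genes. Over all genes, the other scalings called 17.2% to 22.4% higher and 20.9% to 26.1% lower. At an unadjusted p under 0.05, 5 members passed limma, 1 of them, Il6ra, with a lower value in DRG neurons. Every DRG library was above every CGN library for 5 members, against 43.5% of all genes, and every DRG library was below for 1 member, against 16.8% of all genes. The median log2 fold change of the tested members was 1.95, beside 0.59 over all genes. Lif did not reach the filter on low values and was not tested.

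**Figure D1:**
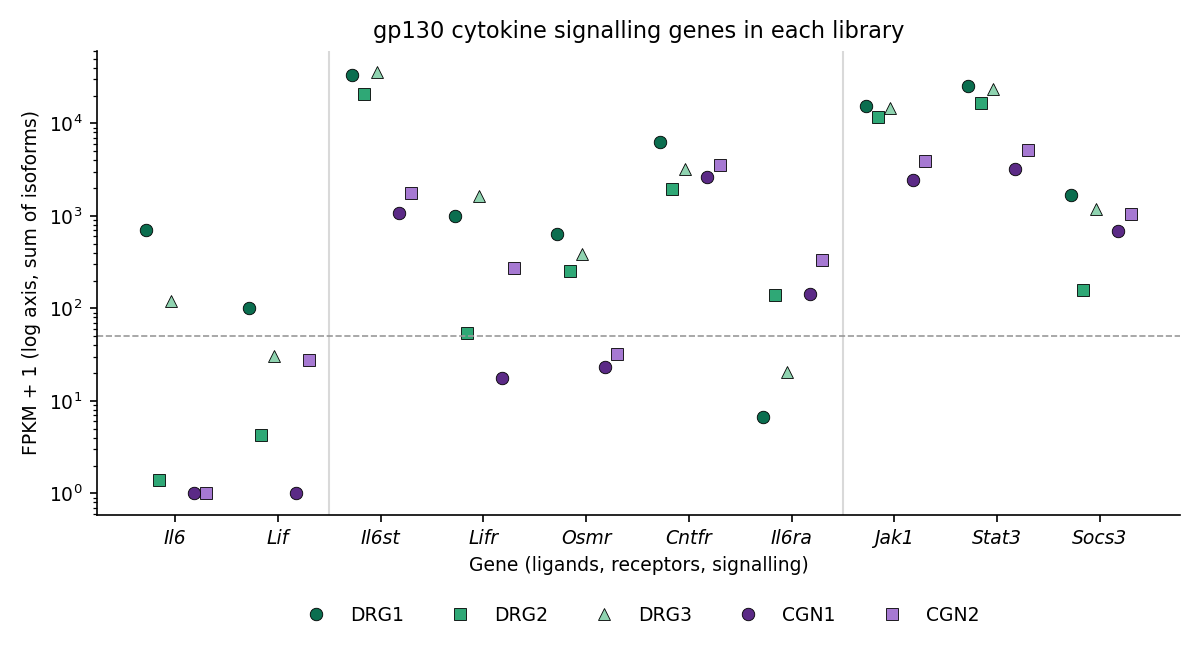
FPKM + 1 of the 10 members on a log axis, 1 point for each library, with the 3 DRG libraries left of the 2 CGN libraries and a dashed line at an FPKM of 50. The DRG points of Il6st, Jak1, Stat3 and Osmr lie above both CGN points, those of Il6ra lie below, and DRG replicate 2 is the lowest DRG point in 9 of the 10 members.

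The shared receptor chain showed the widest separation. Il6st (chr13:113254316-113299542, plus strand, 1 isoform, uc007rwg.1) had 33064.9, 21046.3 and 36123.3 FPKM in DRG neurons, against 1083.78 and 1757.04 FPKM in CGNs. The lowest DRG library was thus far above the higher CGN library, and the spread within either group was small beside the distance between them. Il6st averaged 30078 ± 7970 FPKM in DRG neurons and 1420 ± 476 FPKM in CGNs (SD, n = 3 and 2), a ratio of means of 21.2, with a log2 fold change of 4.36 (SE 0.38, limma adjusted p = 6.1e-05).

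The receptor chains that pair with gp130 did not move together. Osmr, the chain that makes gp130 a receptor for oncostatin M, had 637.27, 253.97 and 389.98 FPKM in DRG neurons, against 22.34 and 31.58 FPKM in CGNs. Its groups did not overlap, and its mean of 427 ± 194 FPKM in DRG neurons was 15.8 times the 27.0 ± 6.53 FPKM in CGNs (SD, n = 3 and 2). The log2 fold change was 2.55 (SE 0.61, limma adjusted p = 0.01). With a single CGN library left, which is then assumed to vary like the DRG libraries, the log2 fold change stayed at 2.47 without CGN replicate 1 and 2.64 without CGN replicate 2, and the smaller comparison did not pass (limma adjusted p = 0.089 and 0.059). The region of Osmr in the table (chr15:6658407-6824354, minus strand) also covers the neighbouring gene Rictor.

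Lifr, the receptor of Lif and the partner of gp130 in the Cntf receptor complex, had 1004.54, 53.74 and 1650.23 FPKM in DRG neurons, against 16.84 and 274.62 FPKM in CGNs. DRG replicate 2 lay between the 2 CGN libraries, so the groups overlapped, and the log2 fold change of 1.95 (SE 1.16) did not pass the test (limma adjusted p = 0.21). Without DRG replicate 2 it was 3.18 (limma adjusted p = 0.003). Within the CGNs, Lifr was 16.3 times as high in replicate 2 as in replicate 1, whereas that ratio was 1.36 to 2.38 for the other receptors and for Il6st, Jak1, Stat3 and Socs3. The gene lies at chr15:7079531-7147492 on the plus strand.

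Il6ra, the receptor that binds Il6 itself, had the opposite order. It had 5.79, 140.07 and 19.67 FPKM in DRG neurons, against 141.42 and 337.19 FPKM in CGNs. The highest DRG library, replicate 2, was only just below the lower CGN library. The log2 fold change of -1.59 (SE 0.70) did not pass the test (limma adjusted p = 0.10). It passed without DRG replicate 2 (-2.13, limma adjusted p = 0.024) and where libraries were scaled to an equal total (-2.21, limma adjusted p = 0.037) or by median ratios (-1.98, limma adjusted p = 0.045), but not after quantile normalization (-1.83, limma adjusted p = 0.053).

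Cntfr, the receptor of ciliary neurotrophic factor, was high in both cell types. It had 6344.81, 1930.96 and 3244.19 FPKM in DRG neurons, against 2621.39 and 3555.57 FPKM in CGNs, and both CGN values fell inside the DRG range. The log2 fold change was 0.16 (SE 0.48, limma adjusted p = 0.82), and it was below 0 under each other scaling, between -0.78 and -0.52, also without passing the test. The region given for Cntfr (chr4:41442373-41642671, minus strand) is 200299 bases long and covers 4 other protein-coding genes, so its sum may hold reads of those genes.

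The ligands were low. Il6 had 709.29, 0.4 and 119.21 FPKM in DRG neurons and was listed at 0 FPKM in both CGN libraries. The authors' 95% bounds were 461.7 to 956.87 FPKM in DRG replicate 1, 0 to 9.05 in replicate 2 and 7.7 to 230.73 in replicate 3, so replicate 1 lay above the bounds of the other DRG libraries. The groups were apart only by the 0.4 FPKM of DRG replicate 2. The gene did not pass the test (limma adjusted p = 0.15), and without DRG replicate 2 it did (limma adjusted p = 0.0067). No fold is given, because both CGN values are listed at 0.

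Lif, a second ligand of the family that is made by glia and other cells of injured nerves, had 100.06, 3.33 and 29.59 FPKM in DRG neurons, against 0.01 and 26.57 FPKM in CGNs. The groups overlapped, and only DRG replicate 1 was above 50 FPKM (95% bounds 50.24 to 149.88). Il6 and Lif had the same order of the DRG libraries, with replicate 1 highest and replicate 2 lowest.

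The kinase and the transcription factor were both abundant and close in pattern. Jak1 (chr4:100741763-100937857, minus strand) had 15459.9, 11741.3 and 14759.9 FPKM in DRG neurons, against 2424.55 and 3963.64 FPKM in CGNs. Its mean was 13987 ± 1976 FPKM in DRG neurons and 3194 ± 1088 FPKM in CGNs (SD, n = 3 and 2), a ratio of 4.38 and a log2 fold change of 2.15 (SE 0.34, limma adjusted p = 0.0015). The groups were well apart, and the DRG libraries differed by a factor of 1.32 at most, the tightest of the members. The region also covers the gene Raver2.

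Stat3 (chr11:100748122-100800786, minus strand) had 25693.1, 16456.5 and 23736.2 FPKM in DRG neurons, against 3211.39 and 5208.21 FPKM in CGNs. Here too no library of one group came near the other. The mean was 21962 ± 4867 FPKM in DRG neurons and 4210 ± 1412 FPKM in CGNs (SD, n = 3 and 2), a ratio of 5.22 and a log2 fold change of 2.38 (SE 0.37, limma adjusted p = 0.0012).

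Socs3, the feedback inhibitor, was not called, unlike Stat3, though its libraries had the same order as those of Stat3 within each group. It had 1663.65, 155.64 and 1198.31 FPKM in DRG neurons, against 687.9 and 1042.57 FPKM in CGNs. The highest and the lowest of the 5 libraries were both DRG libraries, and the groups overlapped. Its log2 fold change was -0.24 (SE 0.84, limma adjusted p = 0.84), and without DRG replicate 2 it was 0.70 (limma adjusted p = 0.38). The 95% bounds of Socs3 were 1364.66 to 1962.64, 64.33 to 246.96 and 946.23 to 1450.39 FPKM in DRG neurons, against 536.39 to 839.41 and 831.95 to 1253.18 FPKM in CGNs. Replicate 1 was thus above both CGN intervals and replicate 2 below both, beyond these bounds.

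The calls of Il6st, Jak1 and Stat3 held under each scaling and without each library in turn, and their sizes depended on the scaling. The log2 fold change of Il6st was 3.43 to 3.67 under quantile normalization, equal totals and median ratios, that of Jak1 was 1.20 to 1.46 and that of Stat3 was 1.44 to 1.69. Osmr was called under all of these scalings, at 2.03 to 2.42. Relative to the median gene, the rise of Jak1 and Stat3 was therefore smaller than the deposited values give, and that of Il6st remained the largest among the tested members.

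**Figure D2:**
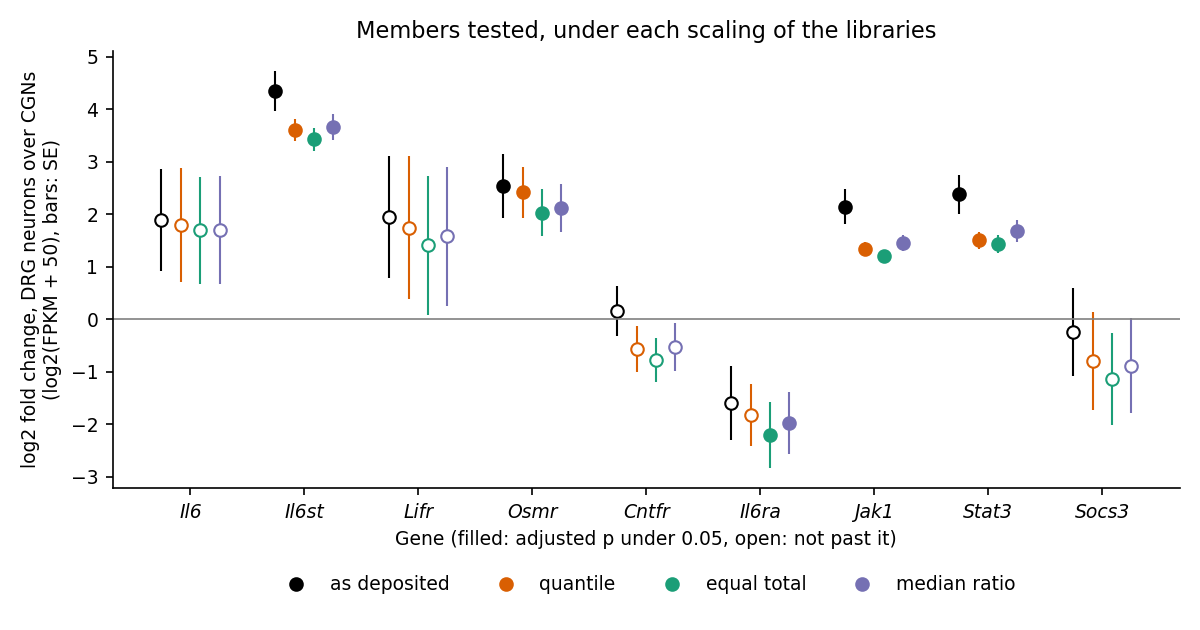
Log2 fold change of the 9 tested members, DRG neurons over CGNs, with the deposited FPKM and under 3 scalings of the libraries; bars are standard errors and filled points passed limma at an adjusted p under 0.05. Il6st, Jak1, Stat3 and Osmr are filled under all settings, Il6ra under 2, and Cntfr changes sign.

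DRG replicate 2 stood apart in these genes. It was the lowest of the 3 DRG libraries for 9 of the 10 members, against 35.1% of all genes tested, and for Il6ra it was the highest. The ratio of the highest to the lowest DRG library was 1.32 for Jak1, 1.56 for Stat3, 1.72 for Il6st, 2.51 for Osmr and 3.29 for Cntfr. It was 10.7 for Socs3, 24.2 for Il6ra, 30.0 for Lif and 30.7 for Lifr. The abundant core of the pathway was thus alike in the 3 DRG cultures, and the ligands, Lifr, Il6ra and Socs3 were not. In the CGNs, replicate 2 was above replicate 1 for 9 of 10 members, near the 83.7% over all genes tested, and the ratio was 1.62 for Il6st, 1.63 for Jak1 and 1.62 for Stat3, beside 1.66 for total FPKM.

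Markers of other cells differed between the groups. Their sums were lowest in DRG replicate 2 for glia and fibroblasts, as was that of the pan-neuronal markers. The sum of sensory neuron markers was lowest in replicate 3 instead, at 629297, 577407 and 474022 FPKM in DRG replicates 1 to 3. DRG replicate 2 was lowest for 5 of the 15 sensory neuron markers tested, beside 35.1% of all genes. Pan-neuronal markers summed to 1870080, 1248450 and 1788090 FPKM in DRG replicates 1, 2 and 3, against 206177 and 338240 FPKM in CGNs, with 7 of 10 higher and DRG replicate 2 lowest of the DRG libraries for 9 of 10. Schwann and satellite glia markers summed to 401365, 222910 and 317071 FPKM in DRG replicates 1 to 3, against 42840 and 66428 FPKM in CGNs. Apoe alone held 247102, 96546.6 and 162391 FPKM of the DRG sums. Of the 16 markers tested, 10 were higher in DRG neurons, 1, Fabp7, was lower and 5 did not pass. Over all genes, 28.4% were higher and 9.22% lower. Foxd3 and Dhh were listed at 0 in both CGN libraries. Fibroblast markers summed to 178020, 93200 and 167799 FPKM in DRG neurons, against 5157 and 11909 FPKM in CGNs. Thy1 was the largest part of the DRG sums, with 65853.2, 34987 and 57096.3 FPKM. Neurons may express Thy1 too, as they may Ngfr of the glia list, so these levels cannot be assigned to non-neuronal cells. Of the 12 fibroblast markers tested, 9 were higher and 0 lower. These non-neuronal cells are known to express gp130, Osmr, Lifr and the ligands, and their part in the members' levels was not tested. In such cultures, fewer cells of a type and less RNA per cell cannot be told apart.

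Macrophage and microglia markers ran the other way, with a sum of 658, 1528 and 398 FPKM in DRG neurons, against 7213 and 11084 FPKM in CGNs, and all 8 tested were lower in DRG neurons. Of the 10 such markers in the table, 3 were listed at 0 in every DRG library: Cx3cr1, which was tested, and Aif1 and Itgam, which were not. Cd68 alone held 584.25, 1073.53 and 285.86 FPKM of the DRG sums. Both Il6ra, which such cells express, and the marker sum were highest in DRG replicate 2 among the DRG libraries. The other DRG libraries had opposite orders for Il6ra and the sum, and the part of these cells in the Il6ra level was not tested either. Cerebellar glia markers summed to 2309, 1349 and 1466 FPKM in DRG neurons, against 17567 and 26883 FPKM in CGNs.

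Since FPKM is per length, levels can be compared between genes within a library, and the ratio of each member to Il6st does not depend on the scale of the library. In DRG neurons Il6st was the most abundant of the 10 members in every library, and in CGNs Stat3, Jak1 and Cntfr all exceeded it. Stat3 was 0.777, 0.782 and 0.657 of the Il6st level in DRG neurons, against 2.96 and 2.96 in CGNs. Jak1 was 0.468, 0.558 and 0.409 of it in DRG neurons, against 2.24 and 2.26 in CGNs. The 2 CGN libraries, which differed in total FPKM, gave nearly the same ratios for both genes.

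Among the receptors, the ratios of Cntfr and Il6ra to Il6st differed more between the groups than those of Stat3 and Jak1. Cntfr was 0.192, 0.0917 and 0.0898 of the Il6st level in DRG neurons, against 2.42 and 2.02 in CGNs. Its summed RNA level thus exceeded that of Il6st only in CGNs, and this sum may hold reads of the neighbouring genes in its region. Il6ra was at most 0.00666 of the Il6st level in DRG neurons, against 0.130 and 0.192 in CGNs. Osmr was 0.0193, 0.0121 and 0.0108 of it in DRG neurons, against 0.0206 and 0.0180 in CGNs, and its FPKM ratios overlapped. Socs3 was 0.0503, 0.0074 and 0.0332 of the Il6st level in DRG neurons, against 0.635 and 0.593 in CGNs.

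The ratios were compared on log2(FPKM + 50) with an exact permutation test, two-sided, in which 3 and 2 libraries can be drawn in 10 ways, so that no p can be below 0.1. The difference, DRG neurons minus CGNs, was -1.97 for Stat3, -2.21 for Jak1, -4.20 for Cntfr, -4.60 for Socs3 and -5.95 for Il6ra, each with an exact p of 0.1 (0.129 after adjustment over the 9 ratios). All 9 ratios share Il6st as their denominator and are not independent. On this scale each difference is the gene's log2 fold change less that of Il6st, which rose most among the tested members. The negative signs therefore follow from the choice of Il6st. The log2 fold changes of Cntfr and Socs3 themselves, 0.16 and -0.24, did not pass (limma adjusted p = 0.82 and 0.84). With a pseudocount of 50 the groups did not overlap for any of the 9 ratios, and with a pseudocount of 1 this held for 5, not for Il6, Lif, Lifr and Osmr. The Il6 difference turned round, at -2.46 with a pseudocount of 50 and 1.22 with 1, and for genes near 0 the larger pseudocount makes the ratio follow the level of Il6st.

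**Figure D3:**
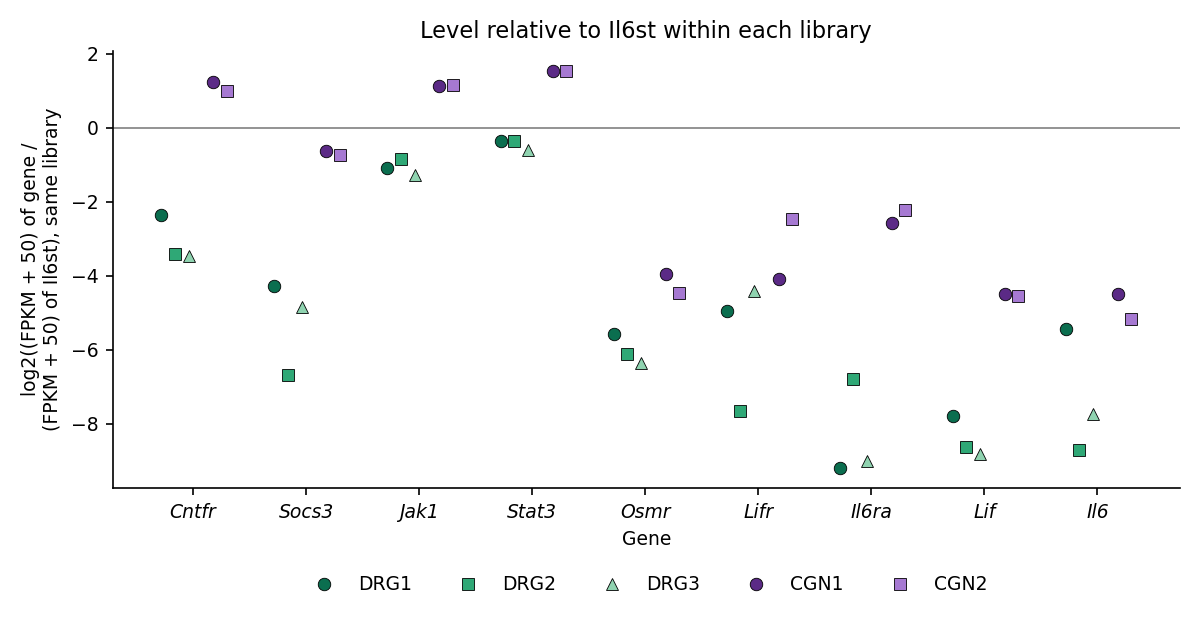
Log2 of the ratio of each member to Il6st in each library, on log2(FPKM + 50) values, DRG libraries left of CGN libraries. Stat3, Jak1 and Cntfr lie above 0, the level of Il6st, in both CGN libraries and below 0 in the 3 DRG libraries.

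The 10 genes were listed with 25 isoforms, 12 of them reference transcripts and 13 assembled from the reads by the authors, which carry a number after the letter j. Of the 19 isoforms tested, 5 were higher in DRG neurons, beside 9.63% of all isoforms tested, and 1 was lower, beside 5.04%. Over all isoforms tested, every DRG library was above every CGN library for 30.3% and below for 16.9%. The lower 95% bound was above 0 in all 5 libraries for 9 of the 25 isoforms, in every DRG library for 10 and in every CGN library for 12, and it was 0 throughout for 2. Isoform values are less certain than gene sums, because reads in shared exons are divided among the isoforms by a model.

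All 3 Stat3 isoforms passed the test as higher in DRG neurons, and the calls of the minor isoforms depended on the settings. The main one, uc007lmp.1, had 21068.6, 13857 and 17649.5 FPKM in DRG neurons, against 2835.71 and 4499.05 FPKM in CGNs (log2 fold change 2.26, SE 0.35, limma adjusted p = 0.015). The isoform uc007lmo.1 had 1228.78, 1035.79 and 3563.38 FPKM, against 247.85 and 26.82 FPKM in CGNs (log2 fold change 3.50, SE 0.83, limma adjusted p = 0.041). The assembled isoform Stat3_j1 had 3395.73, 1563.69 and 2523.36 FPKM, against 127.83 and 682.34 FPKM in CGNs (log2 fold change 2.75, SE 0.70, limma adjusted p just under 0.05). The call of uc007lmo.1 was lost under each other scaling (limma adjusted p = 0.083 to 0.12), and that of Stat3_j1 with equal totals (limma adjusted p = 0.066). Both were also lost with a pseudocount of 1 or 10, with no filter on low values and without the trend. That of uc007lmo.1 was lost without any single library, that of Stat3_j1 without any single library but CGN replicate 2, and that of uc007lmp.1 without DRG replicate 1, DRG replicate 3 or CGN replicate 1.

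As shares of the gene, uc007lmp.1 made up 82.0%, 84.2% and 74.4% of Stat3 in DRG neurons, against 88.3% and 86.4% in CGNs (exact permutation p = 0.2, 0.75 adjusted over 15 shares). The groups did not overlap, but the difference of -7.16 percentage points was near the spread of the DRG libraries (SD 5.17).

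Jak1 had a reference and an assembled isoform that changed places between DRG libraries. The reference isoform uc008tvk.1 had 9845.18, 4256.82 and 11048.5 FPKM in DRG neurons, against 1629.29 and 2584.76 FPKM in CGNs, and did not pass the test (log2 fold change 1.89, SE 0.50, limma adjusted p = 0.055). Jak1_j1 had 5614.72, 7484.44 and 3711.38 FPKM, against 795.26 and 1378.88 FPKM in CGNs, and was higher in DRG neurons (log2 fold change 2.31, SE 0.44, limma adjusted p = 0.024). It was 63.7% of Jak1 in DRG replicate 2 and 36.3% and 25.1% in replicates 1 and 3, against 32.8% and 34.8% in CGNs (exact permutation p = 0.8). The gene's steady sum in the 3 DRG libraries thus held unequal parts. The call of Jak1_j1 was lost without any single library.

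**Figure D4:**
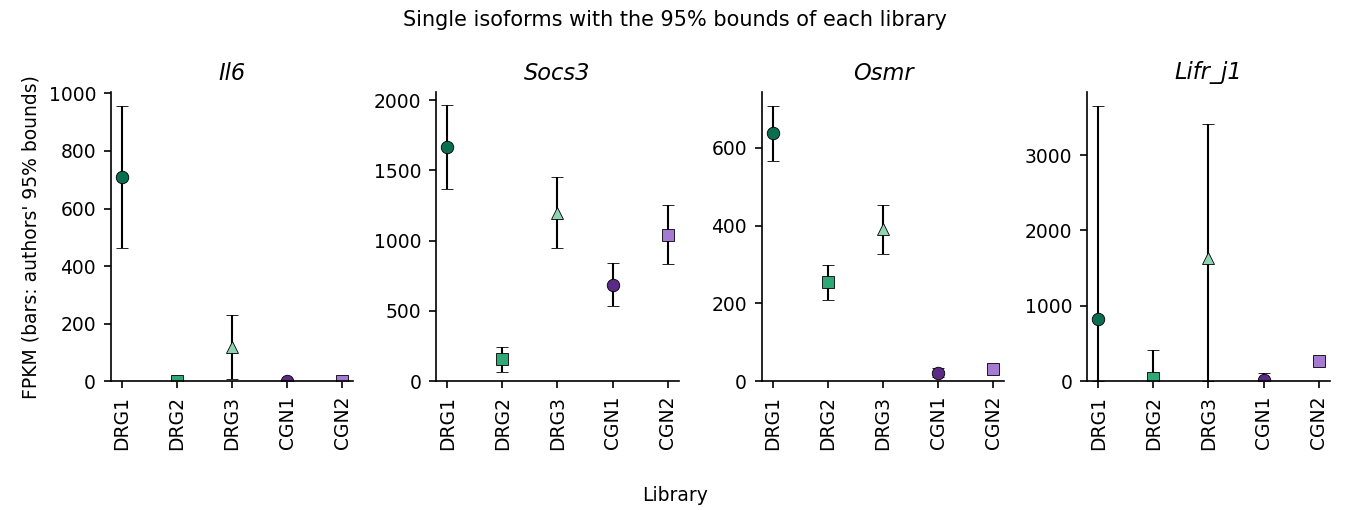
FPKM of the isoforms of Il6, Socs3 and Osmr and of Lifr_j1 in each library, with the 95% bounds that the authors' program gave as bars, DRG libraries left of CGN libraries. The Socs3 interval of DRG replicate 2 lies below those of all other libraries, the Osmr intervals of the DRG libraries lie above those of the CGN libraries, and the Lifr_j1 intervals reach 0 in DRG replicates 1 and 3.

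Most of Lifr was assigned to the assembled isoform Lifr_j1, with 832, 39.96 and 1628.92 FPKM in DRG neurons, against 14.97 and 273.67 FPKM in CGNs. Its 95% bounds reached from 0 to 3654.17 FPKM in DRG replicate 1 and from 0 to 3411.5 FPKM in replicate 3, against 232.81 to 314.53 FPKM in CGN replicate 2. The high DRG values of Lifr are therefore among the least certain of the members. The reference isoform uc007vdy.1 had 168.18 FPKM in DRG replicate 1 (95% bounds 111.72 to 224.64) and at most 21.1 FPKM in any other library. Of Il6ra, the isoform uc008qag.1 carried nearly all, with 3.21, 133.57 and 14.33 FPKM in DRG neurons, against 107.45 and 326.28 FPKM in CGNs. Its lower bound was 0 in every DRG library, and 20.73 and 222.35 FPKM in the CGN libraries.

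The Cntfr sum, which did not pass the test, was made up of different isoforms from library to library. The exact test of shares cannot give a p below 0.1, so it could not call any difference between the groups. All of its 10 isoforms were assembled, and 6, 5 and 6 of them had at least 50 FPKM in the DRG libraries, against 5 and 5 in the CGN libraries. Cntfr_j3 led in both CGN libraries, Cntfr_j5 in DRG replicates 1 and 3, and Cntfr_j4 in DRG replicate 2. Cntfr_j3 was 20.0%, 31.7% and 15.1% of the gene in DRG neurons, against 59.4% and 44.5% in CGNs (exact permutation p = 0.1, 0.75 adjusted over 15 shares). Cntfr_j9 was below 0.1 FPKM in every DRG library, against 456.53 and 575.8 FPKM in CGNs, and was the isoform called lower (limma adjusted p = 0.02). This call was lost without any DRG library. Cntfr_j6 had 985.67, 103.24 and 504 FPKM in DRG neurons and nearly 0 in both CGN libraries, and did not pass the test (limma adjusted p = 0.085).

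The DRG libraries also differed among themselves in Cntfr. Cntfr_j5 had 3120.98, 132.59 and 1462.11 FPKM in DRG neurons, against 408.13 and 803.88 FPKM in CGNs, and the 95% bounds of DRG replicate 1 (3071.21 to 3170.76) lay far above those of replicate 2 (111.3 to 153.89). Cntfr_j4 had 696.17 FPKM in DRG replicate 2 and at most 0.04 FPKM in any other library. The isoform bounds of one library do not cover this variation between libraries. Whether it lies in the cultures or in how the model divided reads among isoforms was not tested.

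**Figure D5:**
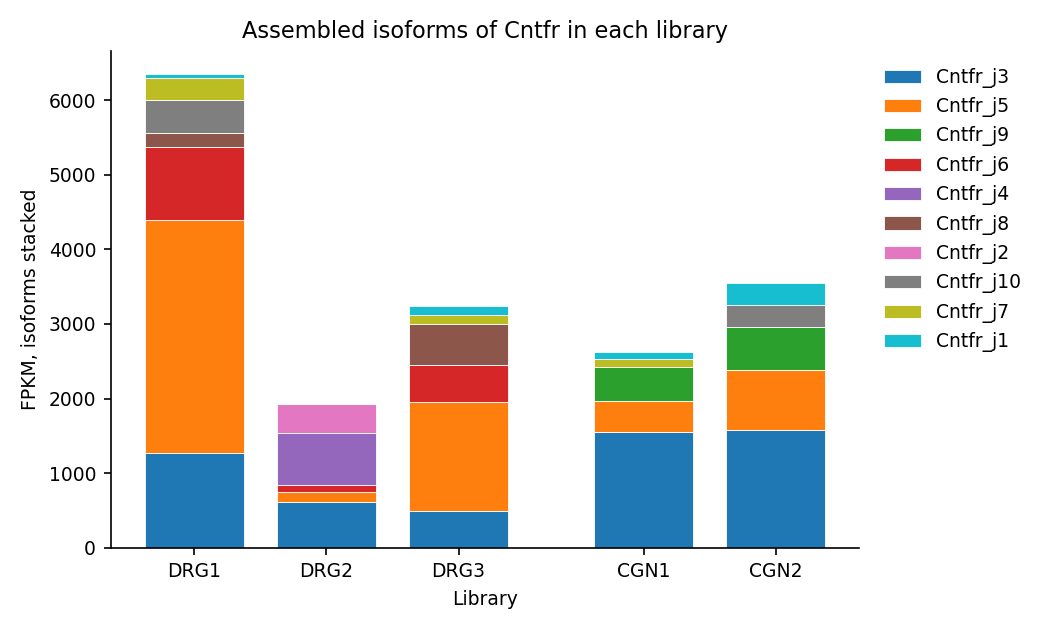
FPKM of the 10 assembled isoforms of Cntfr, stacked to the level of the gene, in the 3 DRG libraries, left, and the 2 CGN libraries, right. Cntfr_j3 takes a larger part of the bar in both CGN libraries, Cntfr_j9 is seen in these alone, and DRG replicate 2 differs from the other DRG libraries through Cntfr_j4 and Cntfr_j2.

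The rest of the pathway was followed through 6 lists of genes of known function. Of the other ligands of gp130, 4 were in the table and tested, 2 rose in DRG neurons and the test was not passed by the other 2, a list too short to read against the 28.4% of all genes. Il11, interleukin 11, had 357.06, 280.92 and 217.24 FPKM in DRG neurons, against 58.08 and 7.44 FPKM in CGNs (log2 fold change 2.07, limma adjusted p = 0.023). Cntf, ciliary neurotrophic factor, which Schwann cells are known to make, had 851.05, 508.2 and 654.46 FPKM, against 130.98 and 187.5 FPKM in CGNs (log2 fold change 1.77, limma adjusted p = 0.033). Neither was called with equal totals or median ratios, and Cntf was also lost without each library except DRG replicate 2 and Il11 without CGN replicate 2.

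Both other receptors tested were lower in DRG neurons, a list too short to read against the 9.22% of all genes called lower. Il11ra1, the receptor that binds interleukin 11, had 0.46, 0.05 and 19.22 FPKM in DRG neurons, against 193.21 and 659.75 FPKM in CGNs (log2 fold change -2.89, limma adjusted p = 0.0067). Il11 and its receptor thus had opposite orders. The mouse genome holds a near-identical copy of Il11ra1, and how reads were divided between the copies is not given in the sources used here. Sort1, sortilin, is a sorting receptor that also binds Cntf. It had 2338.75, 2042.94 and 2224.39 FPKM in DRG neurons, against 3878.69 and 6261.74 FPKM in CGNs (log2 fold change -1.15, limma adjusted p = 0.029). That call was lost without any single DRG library. It was also lost without the trend (limma adjusted p = 0.067) and with the replicate block (limma adjusted p = 0.22).

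Of 7 other JAK and STAT genes, 2 were higher and 5 did not pass the test, about the 28.4% called higher over all genes. Stat6, the STAT of interleukin 4 signalling, averaged 916 ± 144 FPKM in DRG neurons and 78.9 ± 12.1 FPKM in CGNs (SD, n = 3 and 2, log2 fold change 2.90, limma adjusted p = 0.0033). Stat5b, a STAT of growth hormone signalling, averaged 3074 ± 1003 FPKM in DRG neurons and 583 ± 183 FPKM in CGNs (SD, n = 3 and 2, log2 fold change 2.28, limma adjusted p = 0.004). With CGN replicate 2 as the only CGN library, the log2 fold change of Stat5b was 1.98 and did not pass (limma adjusted p = 0.085).

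Of 15 inhibitors besides Socs3, 1 was higher and 14 did not pass the test, with a median log2 fold change of -0.05, below the 0.59 of all genes. The direction of this list depended on the scaling: 5 were lower after quantile normalization, 6 with equal totals and 6 with median ratios, where 21.1%, 26.1% and 20.9% of all genes were lower. Socs5, a SOCS protein that acts on growth factor receptors, averaged 2961 ± 364 FPKM in DRG neurons and 1190 ± 370 FPKM in CGNs (SD, n = 3 and 2, log2 fold change 1.31, limma adjusted p = 0.023). It was not called with equal totals (limma adjusted p = 0.14) or without DRG replicate 1, DRG replicate 2 or CGN replicate 1. Ptprt, a receptor phosphatase that acts on Stat3, had a log2 fold change of 1.43 (limma adjusted p = 0.11), and the phosphatase Ptpn6 had 78.99, 0 and 0 FPKM in DRG neurons, against 101.09 and 146.39 FPKM in CGNs (log2 fold change -1.33, limma adjusted p = 0.12). Ptpn6 was called lower with equal totals (limma adjusted p = 0.029), with median ratios (0.043) and without DRG replicate 1 (0.039), and Ptprt was called higher without DRG replicate 2 (1.96, limma adjusted p = 0.024).

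Of 14 genes of the SHP2 and MAPK arm, the second route from gp130 into the cell, 6 rose in DRG neurons, 1 fell and the test was not passed by 7, beside 28.4% higher and 9.22% lower over all genes. The adaptor Shc1 (log2 fold change 3.21, limma adjusted p = 0.0003) and the kinases Map2k1 (2.76, limma adjusted p = 0.00035) and Mapk3 (2.57, limma adjusted p = 0.00053) were higher in DRG neurons. Gab1, the docking protein that brings SHP2 to the receptor, was lower (-1.76, limma adjusted p = 0.0076). With a single CGN library left it was -2.16 and -1.37 and did not pass. The other scalings left 4 or 5 higher and 2 or 3 lower, where 17.2% to 22.4% of all genes were higher and 20.9% to 26.1% lower.

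Of 22 known target genes of Stat3 that were tested, 13 rose in DRG neurons, 2 fell and the remaining 7 were not called, beside 28.4% higher and 9.22% lower over all genes. Under the other scalings 8 or 9 were higher and 3 lower, where 17.2% to 22.4% of all genes were higher and 20.9% to 26.1% lower. Sprr1a, a protein induced in injured sensory neurons, had 64458.7, 18606.1 and 74250 FPKM in DRG neurons, against 55.99 and 0 FPKM in CGNs (log2 fold change 9.26, limma adjusted p = 1.9e-05). Timp1, an inhibitor of matrix proteases, had 52363.8, 17366.3 and 14758.2 FPKM in DRG neurons, against 122.28 and 334.58 FPKM in CGNs (log2 fold change 6.53, limma adjusted p = 6.5e-05). The cell cycle gene Ccnd1 was also among the genes with the largest change in the list (log2 fold change 5.54, limma adjusted p = 3.6e-05).

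Gfap and Fos went the other way. Gfap, the filament protein of astrocytes, had 128.93, 39.57 and 115.41 FPKM in DRG neurons, against 3713.09 and 5386.07 FPKM in CGNs (log2 fold change -5.03, limma adjusted p = 0.00025), and is also among the cerebellar glia markers above. Fos, an early response gene, had 1875.28, 521.6 and 1173.48 FPKM, against 26430 and 21932.2 FPKM in CGNs (log2 fold change -4.45, limma adjusted p = 0.00021). With CGN replicate 2 as the only CGN library it was -4.32 and did not pass (limma adjusted p = 0.054). DRG replicate 2 was the lowest DRG library for 14 of the 22 targets. Many of these genes answer to other factors as well, so their levels are no measure of Stat3 activity, and the phosphorylation of Stat3 was not measured.

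The genes most like 3 of the members called were sought over the 5 libraries by the Euclidean distance between log2(FPKM + 50) values. Nearest to Il6st were RP23-383D12.6 (distance 0.432), Plec1 (0.453), the linker protein plectin, and Dhrs1 (0.618). Nearest to Stat3 were Flot2 (0.375), Lxn (0.412) and Vapb (0.438), and nearest to Osmr were AK199358 (0.545), BC042696 (0.566) and 5430405G05Rik (0.634). With 5 libraries in 2 groups, the distance reflects level and cell type together.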

How the data were processed

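Polyadenylated RNA of 5 cultures was sequenced. Per the study's methods, the authors used TopHat to place reads on the mm9 genome, Cufflinks to build transcripts, and Cuffdiff to estimate the deposited FPKM of each isoform and library and its 95% bounds, with upper-quartile normalization. Deposited columns of the authors' own comparison (natural log fold change, statistic, p-value, status and call) and the FPKM of libraries run together were not used. The kit is not stated to mark strand, so overlapping genes are uncertain.

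Isoforms were summed per gene. Log2(FPKM + 50) was tested with limma 3.58.1 (empirical Bayes with trend, R 4.3.3) for features of 50 FPKM or more in 2 or more libraries, with Benjamini-Hochberg adjustment over all features and a threshold of 0.05, after tests on simulated data. Shares and ratios had exact permutation tests over 10 splits. P-values measure only the spread between these cultures. Tables and figures used Python 3.11.15, pandas 2.3.3, numpy 2.4.6 and matplotlib 3.10.9. Replicates were counted as separate cultures.

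Named were all members, up to 3 genes called in each direction of each pathway list by size of change (where fewer than 2 were called, up to 2 further), and the 3 nearest genes of Il6st, Stat3 and Osmr. Marker lists covered Schwann and satellite glia, fibroblasts, macrophages and microglia, endothelium, cerebellar glia and the neurons. A marker of the glia list is not reported here and was left out of its sum. Members, lists and tests were chosen with earlier results of these data known. Alternatives were other pseudocounts, filters and scalings, limma without trend, a replicate block, reference transcripts only and leaving out each library. Motif windows were read from NCBIM37 with the regions of the table.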

Additional observations from a re-analysis of the deposited data

How the results depend on the processing

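The count of members higher in DRG neurons was 4 and ranged from 3 to 6 without single libraries. The count lower was 0, and it was 1 (Il6ra) with equal totals or median ratios and 0 to 1 without single libraries. Member isoforms higher were 5, but 2 with no filter on low values, 3 with equal totals, 3 with limma without trend and 1 to 3 without single libraries; isoforms lower were 1, but 2 with equal totals and 0 to 1 without single libraries. Fewer libraries leave fewer degrees of freedom, and the other causes were not tested. Other pathway genes called were 29, and 13 to 29 without single libraries, the lowest without CGN replicate 1. Ratios to Il6st that did not overlap were 9, and 5 with a pseudocount of 1. Isoform shares that did not overlap, after rounding to 0.1%, were 4 of 15, and 4 to 7 without single libraries.

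Values that changed sign passed the test in neither setting. Cntfr, at 0.16, was -0.57 after quantile normalization, -0.78 with equal totals, -0.52 with median ratios and -0.28 to 0.56 without single libraries. Socs3, gene and isoform, ranged from -0.83 to 0.70 without single libraries. Cntfr_j10 was 0.27 with the replicate block and -1.67 to 1.1 without single libraries, Cntfr_j5 was -0.27 with equal totals and -0.25 to 1.81 without single libraries, and Cntfr_j7 was -0.1 to 1.54 without single libraries. With reference transcripts only, Cntfr has no isoform and Lifr was not tested.

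Replicate numbers were not taken to pair cultures. Deviations of same-numbered libraries from their group means correlated at -0.023 and 0.00769 over 13275 genes. The deviations of the 2 CGN libraries mirror each other, so these values cannot decide whether the numbers pair cultures. With the replicate block, 4 member genes were higher and 0 lower, 4 isoforms were higher and 1 lower, and 23 other pathway genes were called. The shares of all genes and isoforms under this block are not given here.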
